A study of Mus musculus with 18 samples.

Results

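The first day of D-amphetamine was compared with the first day of saline in mouse striatum. The comparison was chosen by label: the 3 amphetamine libraries and the 3 saline libraries of day 1 out of 18 libraries in the series, over the 13975 of 29942 gene names whose mean FPKM across all 18 libraries was at least 1. FPKM are fragment numbers divided by transcript length and by the size of the library. The filter fell between genes of nearly equal level, with Hhex at a mean of 1.0017 FPKM just inside and Plch1 at 0.99904 just outside.

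All 6 mice were siblings of the 129Sv/Jae S4 strain, described as matched for age and sex, with neither given in the labels. Controls received 0.9% saline intraperitoneally, and treated mice received D-amphetamine hemisulfate by the same route, in a volume of 10 ml/kg, to a total of 7 mg/kg per day. The striatum of both hemispheres was taken dorsal to the anterior commissure, and the interval from the last injection to dissection on day 1 is not given in the labels. Each library is 1 mouse, so the spread below is between animals. Every day of the series has its own saline mice, and days 7 and 21 are used only to show where day 1 stands beside them.

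Amphetamine releases dopamine from midbrain axons. In the striatum dopamine acts through D1 receptors on direct-pathway projection neurons, which raise cAMP and signal through ERK, and through D2 receptors on indirect-pathway neurons, which lower cAMP. Phosphorylation of CREB and of factors bound beside SRF then induces immediate-early genes such as Fos, Arc and Egr1 without new protein synthesis, and their products include phosphatases and Sprouty proteins that damp ERK in turn.

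The tissue label was checked against markers. The 21 tested projection neuron markers summed to between 4959 and 5906.6 FPKM per day 1 library, with Ppp1r1b among them, and all 21 passed the filter. Neighbouring tissue was also present in unequal amounts. Slc17a7, a vesicular glutamate transporter of cortical neurons, was at 4.14, 27.6 and 14.8 FPKM in saline replicates 1, 2 and 3 and at 1.61, 12.7 and 1.76 FPKM in amphetamine replicates 1, 2 and 3. Ttr, the transthyretin gene of choroid plexus, was at 12.9, 8.64 and 2.46 FPKM with saline and at 91.1, 18.1 and 42.9 FPKM with amphetamine. Read totals were unknown. The spacing of the smallest FPKM values gave a relative depth of 0.768 to 0.850 of the deepest library for the amphetamine mice and 0.769 to 0.979 for the saline mice.

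The upstream sequences of 6 activity-regulated genes with small p on day 1, picked from the immediate-early and ERK feedback lists, are shown first, since cAMP and ERK signalling are known to act through short elements near the start of such genes. Each is the 250 bases before an annotated start in RefSeq on GRCm38.p6, read 5' to 3' on the strand of the gene. Capitals mark matches on either strand to the full cAMP response element TGACGTCA, to its 5-base core TGACG, or to the CArG box that SRF binds. For Egr2, which has several annotated starts, the window shown is 1 of those holding both kinds of element.
Btg2, chr1:134079156-134079405, minus strand: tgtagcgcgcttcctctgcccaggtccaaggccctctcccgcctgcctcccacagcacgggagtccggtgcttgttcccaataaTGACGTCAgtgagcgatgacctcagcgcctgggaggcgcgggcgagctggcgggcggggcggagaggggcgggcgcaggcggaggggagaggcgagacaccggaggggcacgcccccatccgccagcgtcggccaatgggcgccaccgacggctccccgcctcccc
Dusp1, chr17:26508473-26508722, minus strand: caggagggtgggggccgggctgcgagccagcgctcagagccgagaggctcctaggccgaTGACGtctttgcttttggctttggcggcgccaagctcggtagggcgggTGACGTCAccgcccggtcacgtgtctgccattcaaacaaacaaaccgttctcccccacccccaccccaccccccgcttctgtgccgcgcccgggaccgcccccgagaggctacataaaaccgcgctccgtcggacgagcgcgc
Ppp1r15a, chr7:45526269-45526518, minus strand: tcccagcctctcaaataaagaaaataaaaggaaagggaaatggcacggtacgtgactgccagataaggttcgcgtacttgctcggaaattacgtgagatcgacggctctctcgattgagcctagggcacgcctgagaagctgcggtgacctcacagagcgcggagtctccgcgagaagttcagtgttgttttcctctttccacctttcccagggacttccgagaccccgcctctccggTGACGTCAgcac
Fos, chr12:85473640-85473889, plus strand: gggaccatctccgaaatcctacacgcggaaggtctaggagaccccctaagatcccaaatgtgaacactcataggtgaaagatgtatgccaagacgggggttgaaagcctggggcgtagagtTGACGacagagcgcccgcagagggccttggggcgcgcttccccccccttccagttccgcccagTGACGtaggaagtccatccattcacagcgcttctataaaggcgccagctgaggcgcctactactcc
Junb, chr8:84978749-84978998, minus strand: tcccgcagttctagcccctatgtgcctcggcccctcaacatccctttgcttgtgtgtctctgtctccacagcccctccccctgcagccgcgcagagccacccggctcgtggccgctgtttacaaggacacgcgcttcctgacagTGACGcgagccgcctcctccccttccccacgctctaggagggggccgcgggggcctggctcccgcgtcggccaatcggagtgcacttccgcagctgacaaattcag
Egr2, chr10:67537619-67537868, plus strand: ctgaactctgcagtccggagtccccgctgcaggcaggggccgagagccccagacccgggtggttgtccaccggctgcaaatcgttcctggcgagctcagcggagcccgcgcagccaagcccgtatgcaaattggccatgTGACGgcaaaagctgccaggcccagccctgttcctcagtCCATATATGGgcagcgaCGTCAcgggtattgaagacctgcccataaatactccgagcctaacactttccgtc

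The windows of Btg2, Dusp1 and Ppp1r15a hold a full element, which begins 166, 143 and 12 bases before the start. Those of Fos and Junb hold the core only, at 129 and 66 bases before the start in Fos and at 106 in Junb, and the window of Egr2 holds 2 copies of the core with a CArG box between them. None of the searched letters were in the window of Dusp6, another gene of the list. Of the 62 tested immediate-early and ERK feedback genes, 50 were in the promoter table, and 7 of these 50 (14%) had a full element in a window, against 3.16% of the 9780 tested genes with a window read. The core was found in 29 of the 50 (58%), against 31.3% of those genes. Split by the day 1 values, the core occurred in 16 of 23 members (69.6%) with an unadjusted p under 0.05 and in 13 of the 27 others (48.1%). A CArG box was found in 4 of the 50 (8%) against 1.42%, the AP-1 site TGANTCA in 1 of the 50 (2%) against 5.11%, and the Egr site GCGTGGGCG in 0 of the 50 against 1.22%. The 5-base core lies inside every full element, so the 2 counts overlap. These matches describe letters in the windows and carry no test. Sequence farther upstream or after the start was not searched, so a gene without a match here may hold an element elsewhere.

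Btg2, an antiproliferative member of the BTG/Tob family that is induced by activity, was the gene that passed the threshold on day 1. Its level was 3.05, 2.34 and 2.11 FPKM in the saline mice and 9.51, 8.76 and 15.7 FPKM in the amphetamine mice. The groups did not overlap, and the lowest treated mouse stood well above the highest control. Mean FPKM was 4.53 times higher with amphetamine (11.3 ± 3.80 against 2.50 ± 0.488, SD, n = 3 each), and on the log2(FPKM + 1) scale, which understates the change of low genes, Btg2 rose by 1.78 ± 0.206 (SE, limma adjusted p = 0.00665). This was 1 higher gene of 13975 (0.00716%), with 0 lower (0%). At an unadjusted limma p under 0.05, 743 genes (5.32%) were higher and 270 (1.93%) lower, 1013 (7.25%) in all, and groups did not overlap in 1080 higher (7.73%) and 406 lower genes (2.91%). When only the 6 libraries of day 1 were fitted, so that they alone set the spread, Btg2 had the same difference and did not pass (limma adjusted p = 0.643). With 3 mice against 3, an exact permutation of a single gene cannot go below p = 0.1.

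Amphetamine libraries read slightly higher across the whole table: 8950 genes (64%) had a log2 difference above 0, with a median of 0.047. Scaling each library by the median of ratios moved the share above 0 to 49.9%, and the genes at an unadjusted p under 0.05 to 377 higher and 510 lower, so that 42.5% of them were higher in place of 73.3%. Quantile normalization gave 399 higher and 516 lower. Without amphetamine replicate 3 the counts were 389 and 194, and without saline replicate 1 they were 486 and 222. Directions below that turn with the scaling are given with both values.

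**Figure D1:**
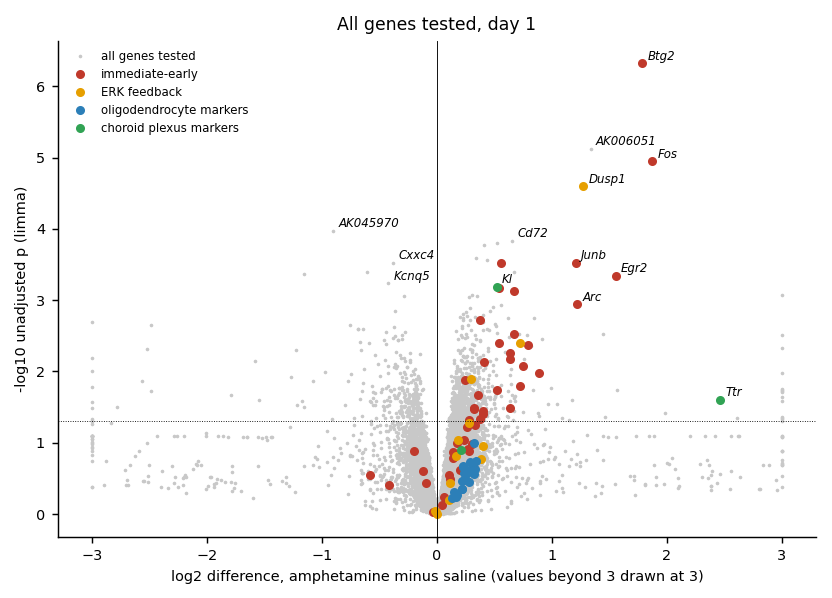
Each point is 1 of 13975 genes on day 1, with the log2 difference (amphetamine minus saline) on the horizontal axis and minus log10 of the unadjusted limma p on the vertical axis; the dotted line is at the 0.05 level. Btg2, AK006051, Fos and Dusp1 stand highest, the immediate-early genes (red) lie mostly to the right, and the oligodendrocyte markers (blue) form a tight cloud right of 0 and below the line.

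Next to Btg2 stood AK006051, Fos and Dusp1, each short of the threshold. Fos, which forms AP-1 with a Jun protein, was at 6.60, 5.75 and 4.47 FPKM with saline and at 20.2, 16.1 and 36.8 FPKM with amphetamine. The difference was 1.87 ± 0.284 (SE, limma adjusted p = 0.0525), and the groups lay far apart. AK006051, a cDNA name without a matching symbol, was at 6.80, 5.32 and 4.39 FPKM with saline and at 13.2, 13.02 and 20.4 FPKM with amphetamine, a difference of 1.34 ± 0.196 (limma adjusted p = 0.0525). Dusp1, a nuclear phosphatase that inactivates MAP kinases, was at 12.1, 12.3 and 13.6 FPKM with saline and at 27.7, 25.1 and 46.5 FPKM with amphetamine. Its difference was 1.27 ± 0.208 (limma adjusted p = 0.0890). In all of them the 3 controls were close together and amphetamine replicate 3 was the highest mouse. Fos and AK006051 passed when genes under a mean of 5 FPKM were left out (limma adjusted p = 0.0339 for both) and when the 302 short RNA genes were left out (limma adjusted p = 0.0291 for both). They did not pass with either scaling above (limma adjusted p = 0.0615 and 0.0565 for both genes).

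**Figure D2:**
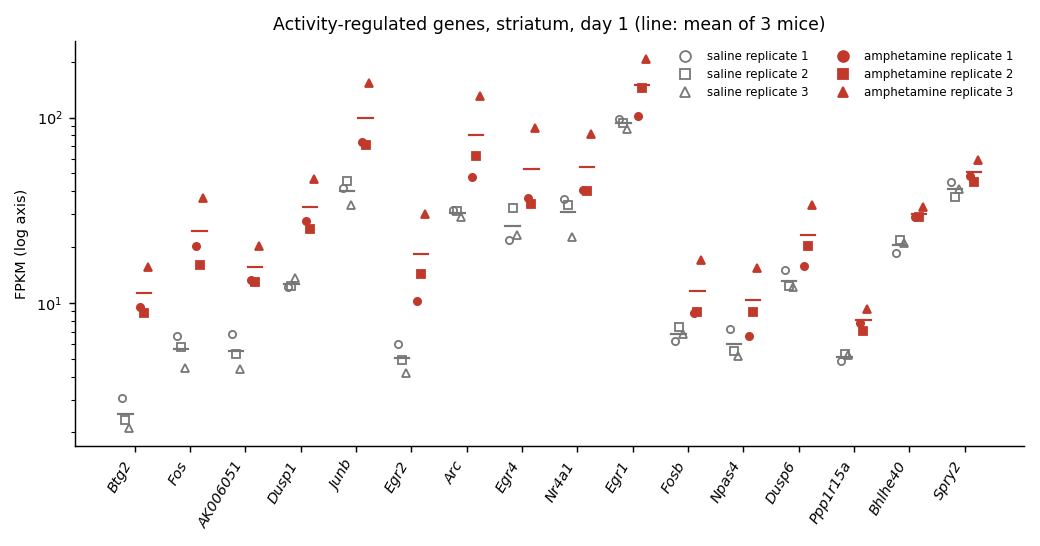
FPKM on a log axis of 16 activity-regulated genes in the 3 saline mice (open grey) and the 3 amphetamine mice (filled red) of day 1, with the symbol giving the replicate number and the line the group mean. Amphetamine replicate 3 (red triangle) is the highest mouse for each of these genes, and Npas4 is a gene whose groups overlap.

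The other immediate-early transcription factors were mostly higher with smaller and more variable differences. Of 28 listed, 25 were tested, and Fosl1, Atf3 and Maff fell under the filter. Of the 25, 22 were higher, 15 (60%) at an unadjusted p under 0.05 against 5.32% of all genes, and in 13 (52%) the groups did not overlap, against 7.73% of all genes. None passed the adjusted threshold, and the median difference was 0.38 against 0.047 over all genes. Junb, an AP-1 subunit, was at 41.6, 45.2 and 33.8 FPKM with saline and at 74.2, 70.8 and 154 FPKM with amphetamine (difference 1.21, limma adjusted p = 0.323). Egr2, a zinc finger factor, was at 5.99, 4.90 and 4.16 FPKM against 10.2, 14.3 and 30.3 FPKM (1.55, limma adjusted p = 0.376). Both had separate groups, with treated replicate 3 far above the other treated mice.

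Members of 1 family did not stand alike. Among the Egr genes, which encode zinc finger transcription factors, the log2 difference was 1.55 for Egr2, 0.88 for Egr4, 0.64 for Egr1 and 0.23 for Egr3. Egr1 was at 98.3, 93.9 and 86.4 FPKM with saline and at 102, 143 and 207 FPKM with amphetamine, so its lowest treated mouse was close to the controls. Among AP-1 genes it was 1.87 for Fos, 1.21 for Junb, 0.63 for Fosb, 0.36 for Jun and 0.33 for Jund. Fosb was at 6.24, 7.37 and 6.81 FPKM against 8.79, 8.96 and 17.03 FPKM, which did not overlap. Among the nuclear receptors Nr4a1 differed by 0.72, Nr4a3 by -0.03 and Nr4a2 by -0.58. Differences between genes within a family were not tested.

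Npas4, a factor induced by calcium entry in neurons, was at 7.22, 5.51 and 5.17 FPKM with saline and at 6.63, 8.94 and 15.4 FPKM with amphetamine. The groups overlapped, and the difference was 0.64 (limma adjusted p = 0.674). Bhlhe40, a repressor linked to the clock, had narrow groups, with 18.6, 21.9 and 21.0 FPKM against 29.0, 29.0 and 32.9 FPKM (0.54, limma adjusted p = 0.471). Klf2, a Krüppel-like factor, was at 3.00, 2.85 and 4.34 FPKM against 6.79, 5.16 and 5.88 FPKM, a difference of 0.67 in which replicate 3 was not the highest treated mouse.

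Of the 49 members in both lists, 6 were lower, and the 2 with the lowest values, Nr4a2 and Ctgf, were high in the same mice as a cortical marker. Nr4a2 was at 0.486, 4.49 and 2.42 FPKM with saline and at 0.542, 3.30 and 0.260 FPKM with amphetamine, and Ctgf, a secreted matrix protein, at 1.38, 5.09 and 3.28 FPKM against 1.42, 4.31 and 1.01 FPKM (difference -0.42). Both were highest in saline replicate 2 and next in amphetamine replicate 2 or saline replicate 3, as was Slc17a7 above. The 12 listed cortical markers, 8 of them tested and none at 0 in all 6 libraries, summed to 74.2 to 122 FPKM with saline and 75.6 to 88.4 FPKM with amphetamine. Their part in these 2 differences was not tested.

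Immediate-early effectors, which act at synapses, on RNA or on signalling rather than on promoters, stood much like the factors. Of 25 listed, 24 were tested and Ptgs2 fell under the filter. Of the 24, 21 were higher, 13 (54.2%) at an unadjusted p under 0.05 against 5.32% of all genes, and in 11 (45.8%) the groups did not overlap, against 7.73%. Btg2 was the member that passed the adjusted threshold, and the median difference was 0.28. Arc, a regulator of glutamate receptor traffic, was at 31.7, 31.3 and 29.1 FPKM with saline and at 47.8, 61.9 and 130.4 FPKM with amphetamine (1.22, limma adjusted p = 0.572). The controls lay close together, while the treated mice spread widely. Ppp1r15a, which directs a phosphatase to the translation factor eIF2, was at 4.83, 5.29 and 5.26 FPKM against 7.83, 7.05 and 9.25 FPKM (0.56, limma adjusted p = 0.323). Rasd1, a small GTPase, differed by 0.79, Gadd45g, a stress sensor, by 0.75, and Pim1, a survival kinase, by 0.67. Plk2, a kinase that weakens synapses, was already at 98.3, 98.8 and 93.9 FPKM with saline and reached 104, 109 and 134 FPKM (0.25). Homer1, a postsynaptic scaffold gene with a short inducible form, was at 73.6, 59.5 and 65.6 FPKM against 54.9, 67.1 and 64.2 FPKM (-0.09). The table has 1 value per gene name, so its forms cannot be told apart.

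Among feedback regulators of ERK, the dual-specificity phosphatases Dusp1 and Dusp6 had the smallest p. Of 15 listed, 13 were tested and 10 were higher, 3 (23.1%) at an unadjusted p under 0.05 against 5.32% of all genes. In 5 (38.5%) the groups were separate, against 7.73%, and the median was 0.18, or 0.105 without amphetamine replicate 3. After Dusp1 came Dusp6, which acts on ERK in the cytoplasm, at 14.96, 12.3 and 12.1 FPKM with saline and 15.8, 20.3 and 33.9 FPKM with amphetamine (0.72, limma adjusted p = 0.597). The groups were separate only narrowly. The Sprouty genes, inhibitors of the pathway upstream of Ras and Raf, differed by 0.29 for Spry2, 0.28 for Spry4 and 0.18 for Spry1. Besides Dusp1 and Dusp6, Spry2 was the member with an unadjusted p under 0.05. Dusp4, Dusp5, Dusp7 and Dusp14 differed by 0.40, 0.38, 0.11 and 0.10, and the groups of Dusp5, Dusp7 and Dusp14 overlapped. Spred3, Spred2 and Spred1, inhibitors of Ras, differed by -0.014, -0.0054 and -0.00017.

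The components that carry the signal had medians near 0. The 27 CREB and cAMP genes, of which 14 were higher, had a median of 0.0057, which was -0.0475 with median-of-ratios scaling and -0.0659 with quantile normalization. Akap5, which anchors protein kinase A at synapses, was the member with an unadjusted p under 0.05 (65.5, 54.9 and 62.9 FPKM against 56.5, 54.3 and 48.0 FPKM, -0.20). This was 1 of 27 lower (3.7%), against 1.93% of all genes. With each of the scalings it was 5 of 27, where 510 and 516 of all genes were lower, and without saline replicate 1 or amphetamine replicate 3 it was 0. Groups were separate and lower in 3 of the 27 (11.1%, against 2.91% of all genes), Atf1, Ep300 and Gnal, with differences of -0.13, -0.10 and -0.07. The 24 ERK and SRF pathway genes had a median of -0.0064 (11 higher). Rps6ka2, a ribosomal S6 kinase, was the 1 higher member at that level (4.17%, against 5.32% of all genes), with a difference of 0.19, and 0 were with each of the scalings. Late activity genes, which need new protein, included Vgf, a secreted neuropeptide precursor, at 77.5, 81.1 and 83.6 FPKM against 96.0, 88.5 and 157 FPKM (0.45), and Gpr3, a constitutively active receptor (0.53). Of these 12 tested, 10 were higher, with a median of 0.14, and Vgf and Gpr3 were the 2 (16.7%) with an unadjusted p under 0.05, against 5.32% of all genes. Without amphetamine replicate 3 there were 0, with a median of 0.069.

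Over both immediate-early lists, 28 of 49 tested genes (57.1%) were higher at an unadjusted p under 0.05 and 0 lower, and 24 had separate groups, against 5.32% and 7.73% of all genes. The median was 0.33, and it was 0.29 and 0.28 with both scalings. The size of the difference varied between the treated mice. The median over the 49 genes, as a deviation from the saline mean in log2, was 0.21, 0.23 and 0.58 in amphetamine replicates 1, 2 and 3, and -0.07, 0.09 and -0.01 in the saline replicates. Replicate 3 was the highest treated mouse in 41 of the 49 genes (83.7%) and in 12 of the 13 ERK feedback genes (92.3%), against 44.1% of all genes. Without it, 15 of the 49 (30.6%) were higher at an unadjusted p under 0.05, against 2.78% of all genes. Then 41 were still higher, with a median of 0.23. With only the 6 libraries of day 1 fitted, 17 were higher at that p. There 722 of all genes had such a p in either direction, in place of 1013.

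**Figure D3:**
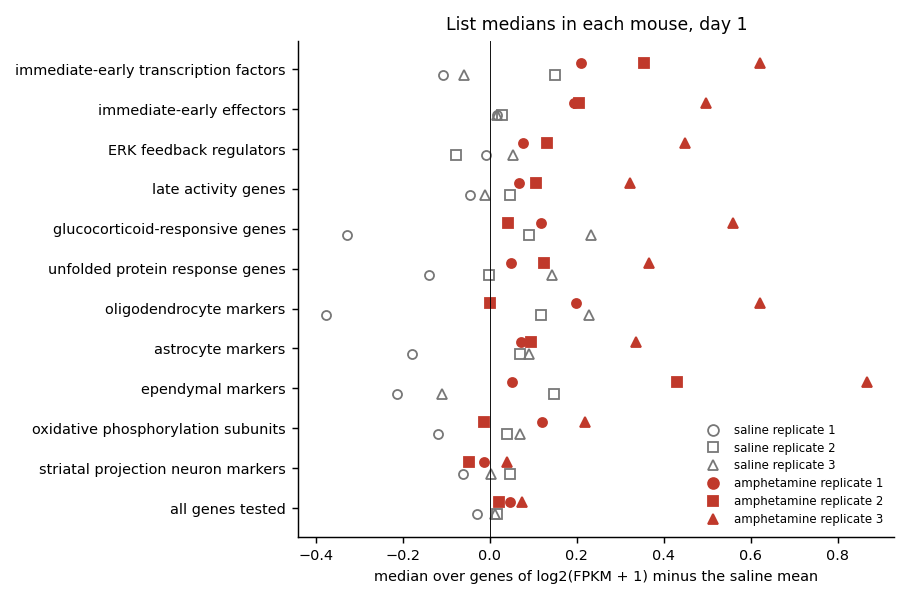
For each list, the median over its tested genes of log2(FPKM + 1) minus the mean of the 3 saline mice is plotted for the 3 saline mice (open grey) and the 3 amphetamine mice (filled red) of day 1. For the immediate-early lists all treated mice lie right of all controls, whereas for oligodendrocyte, glucocorticoid-responsive and unfolded protein response genes the groups overlap, with saline replicate 1 lowest and amphetamine replicate 3 highest.

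Replicate 3 was also highest in markers of other cell types. The 21 oligodendrocyte markers, among them Mbp of the myelin sheath, were all higher with amphetamine with both scalings too, and 0 of 21 had an unadjusted p under 0.05. Their median was 0.23, and per mouse it was -0.38, 0.12 and 0.23 with saline and 0.20, 0.0008 and 0.62 with amphetamine. Summed FPKM of these markers ran from 1564 to 2635 with saline and from 2124 to 3434 with amphetamine. Without saline replicate 1 the median was 0.093 with 18 of 21 higher, and without amphetamine replicate 3 it was 0.091 with 20 higher. In tissue RNA, fewer cells of a type and less RNA per cell cannot be told apart. The part of cell makeup in the immediate-early differences was not tested.

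Saline replicate 1 was lowest and amphetamine replicate 3 highest in further lists. The number in the column header of saline replicate 1 lay apart from those of the other day 1 libraries, which were consecutive. What these numbers stand for is not given in the labels, and their part in the differences was not tested. Of 19 glucocorticoid-responsive genes, 17 were higher and 0 had an unadjusted p under 0.05. Their median of 0.26 became 0.025 without saline replicate 1 and 0.078 without amphetamine replicate 3. Fkbp5, a co-chaperone of the glucocorticoid receptor, was at 11.6, 15.1 and 16.1 FPKM against 14.9, 14.6 and 16.8 FPKM (0.11), and Sgk1, a kinase induced by steroids, at 64.1, 88.1 and 93.1 FPKM against 90.5, 88.8 and 117 FPKM (0.28). Of 21 unfolded protein response genes, 20 were higher (median 0.14). Among them 2 (9.52%, against 5.32% of all genes) had an unadjusted p under 0.05, Hyou1 and Syvn1, which act in folding and disposal in the endoplasmic reticulum, and 0 did without saline replicate 1 or without amphetamine replicate 3. The 78 oxidative phosphorylation subunits had a median of 0.11 with 72 higher and 6 (7.69%) at an unadjusted p under 0.05, against 5.32% of all genes. With the scalings 62 and 64 were higher, with medians of 0.056 and 0.061. Without saline replicate 1 the median was 0.055, with 3 genes (3.85%) at that p, against 3.48% of all genes. Without amphetamine replicate 3 it was 0.054, with 2 genes (2.56%), against 2.78% of all genes. Of 75 mitochondrial ribosomal proteins 67 were higher (median 0.12) and 6 (8%) had an unadjusted p under 0.05, against 5.32% of all genes. With each of the scalings or without amphetamine replicate 3 there were 3 (4%), against 2.7%, 2.86% and 2.78% of all genes. The leading one was Mrpl53 at 9.44, 10.9 and 9.40 FPKM against 12.8, 11.6 and 12.2 FPKM.

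Choroid plexus and ependymal genes, which mark the ventricle wall beside the striatum, were higher with amphetamine. The 13 choroid markers summed to 11.2 to 20.8 FPKM with saline and 28.6 to 105 FPKM with amphetamine, without overlap, and 3 of the 13 passed the filter. Besides Ttr (2.46, limma adjusted p = 0.666), Kl, the klotho gene, was at 0.836, 0.711 and 0.897 FPKM against 1.82, 1.56 and 1.43 FPKM (0.52, limma adjusted p = 0.471). Of the 3 tested choroid markers, 2 (66.7%) were higher at an unadjusted p under 0.05, against 5.32% of all genes. Without amphetamine replicate 3 it was 1 (33.3%), against 2.78% of all genes. The 7 tested ependymal markers were all higher (median 0.36), also with both scalings, and 6 were higher without amphetamine replicate 3. Of the 7 ependymal markers 0 had an unadjusted p under 0.05. Their sums were 27.3 to 35.8 FPKM and 31.5 to 59.8 FPKM. Whether this tissue takes part in differences of other genes was not tested.

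**Figure D4:**
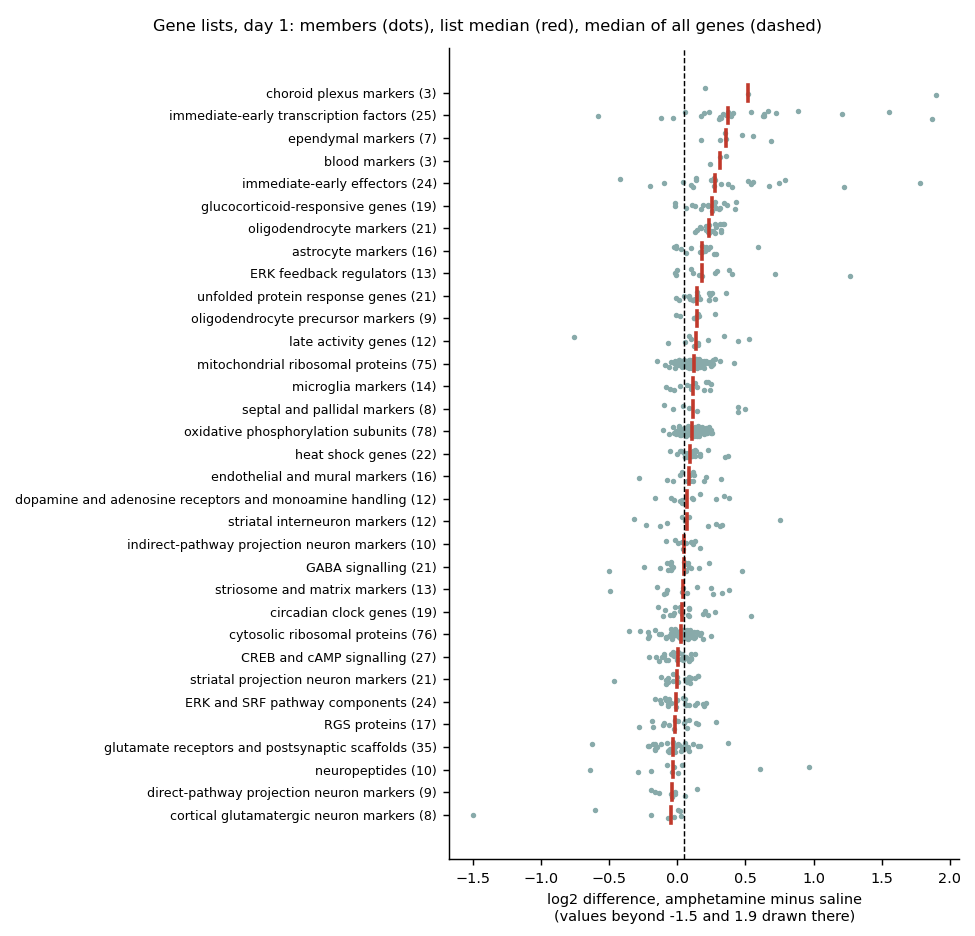
Each dot is a tested gene of 33 lists, placed by its log2 difference (amphetamine minus saline) on day 1, with the list median in red, the number tested in brackets and the median of all genes (0.047) dashed. Immediate-early lists reach far to the right with a few genes, oligodendrocyte markers are shifted as a narrow cluster, and signalling components and projection neuron markers centre near the dashed line or below it.

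Genes that define the neurons receiving the dopamine signal had small differences. Drd1a, the D1 receptor of direct-pathway neurons, was at 115, 108 and 112 FPKM with saline and at 95.2, 98.7 and 105 FPKM with amphetamine. The groups were separate, and the difference was -0.16 (limma adjusted p = 0.666). Drd2, the D2 receptor of indirect-pathway neurons, was at 108, 138 and 124 FPKM against 135, 124 and 141 FPKM (0.12), and Adora2a, the adenosine receptor of the same neurons, differed by 0.17. Of 9 direct-pathway markers 2 were higher (median -0.036), and of 10 indirect-pathway markers 8 were (median 0.053), against 64% of all genes. With the 2 scalings 2 of the direct-pathway markers were higher, and 5 and 6 of the indirect-pathway markers. Without saline replicate 1 it was 4 of 9 (median -0.0142) and 7 of 10 (median 0.0217). The 21 markers shared by projection neurons had a median of 0.0023, which was -0.0504 and -0.0683 with both scalings. Rarb, a retinoic acid receptor, was the member of that list with an unadjusted p under 0.05, at 164, 176 and 213 FPKM against 107, 120 and 181 FPKM (-0.46). This was 1 of 21 lower (4.76%), against 1.93% of all genes. Drd1a was the 1 of 9 direct-pathway markers lower at that p (11.1%), and without saline replicate 1 there were 0. Ppp1r1b, which encodes DARPP-32, differed by 0.13, and Rasgrp1 and Rasgrp2, exchange factors for Ras and Rap, by -0.08 and 0.15.

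Neuropeptide genes, known as slower targets of dopamine, were split in direction on day 1. Of 10 tested, 4 were higher, 0 in either direction had an unadjusted p under 0.05, and the median was -0.031. Pdyn, the prodynorphin gene of direct-pathway neurons, was at 67.5, 66.4 and 57.2 FPKM with saline and at 54.0, 52.0 and 60.8 FPKM with amphetamine (-0.19, limma adjusted p = 0.695). Its groups overlapped. On days 7 and 21 the same difference was 0.63 and 0.52. The change in response between day 1 and day 7 had an unadjusted limma p of 0.000446 and did not pass (smallest limma adjusted p over all genes 0.693). That between day 1 and day 21 had an unadjusted limma p of 0.00145 and did not pass either (smallest limma adjusted p over all genes 0.456). Penk, which encodes enkephalin, differed by 0.0050, and Tac1, which encodes substance P, by -0.04.

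Among receptors for transmitters, Gabra2, a GABA-A receptor subunit, was at 46.2, 40.5 and 45.1 FPKM with saline and at 32.4, 32.8 and 27.4 FPKM with amphetamine, a difference of -0.50 with no overlap (limma adjusted p = 0.666). Cnr1, the cannabinoid receptor gene, was at 57.1, 69.3 and 65.2 FPKM against 86.6, 85.5 and 70.0 FPKM (0.33, limma adjusted p = 0.674). Of 35 glutamate receptor and scaffold genes 15 were higher (median -0.027). In 4 (11.4%) the groups were separate and lower, against 2.91% of all genes, namely Grm7 and Grm3, metabotropic glutamate receptors (-0.18 and -0.15), Gria1, an AMPA receptor subunit (-0.16), and Grin2b, an NMDA receptor subunit (-0.63). At an unadjusted p under 0.05 there were 0 lower, and 4 with each of the scalings, where 510 and 516 of all genes were lower in place of 270. Grin2d, another NMDA receptor subunit, was the higher member at that level (0.37). This was 1 of 35 (2.86%), against 5.32% of all genes, and without saline replicate 1 there were 0. Of 21 GABA genes 11 were higher, at any p (median 0.048, and -0.0054 and -0.0161 with both scalings). At an unadjusted p under 0.05, 0 were higher and 1 lower (4.76%, against 1.93% of all genes).

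With the values as deposited, the remaining lists held 0 or 1 member with an unadjusted p under 0.05, against 7.25% of all genes in either direction, apart from dopamine and adenosine receptors and monoamine handling, which held Drd1a lower and Ddc, the dopamine-synthesizing decarboxylase, higher (0.35). Among glia and vessels, 13 of 16 astrocyte markers were higher (median 0.18), with Gfap, a filament protein of astrocytes, at 8.22, 15.6 and 17.3 FPKM against 16.8, 18.2 and 27.3 FPKM. That median was 0.076 without saline replicate 1 and 0.089 without amphetamine replicate 3. Likewise 8 of 9 oligodendrocyte precursor markers (median 0.14), 11 of 14 microglia markers (0.12) and 13 of 16 endothelial and mural markers (0.0905) were higher, against 64% of all genes. With each of the scalings 7, 10 and 11 of them were, against 49.9% and 50.2% of all genes. Their medians were 0.10, 0.070 and 0.049 with median-of-ratios scaling, and 0.092, 0.051 and 0.093 without saline replicate 1. Of 22 heat shock genes 21 were higher (0.095, and 18 and 16 with both scalings), and 14 without saline replicate 1 (0.048). Blood markers (3 of 3 higher, median 0.31), septal and pallidal markers (6 of 8, 0.12) and striatal interneuron markers (8 of 12, 0.072) were small lists. The 11 septal and pallidal markers with a value summed to 36.4 to 36.9 FPKM with saline and 39.7 to 43.3 FPKM with amphetamine, without overlap. The cause of this was not tested. Cytosolic ribosomal proteins (49 of 76, 0.031) and clock genes (12 of 19, 0.032) had medians that were below 0 with both scalings. With each of the scalings 5 ribosomal genes were lower at an unadjusted p under 0.05 in place of 1. Over all genes 510 and 516 were, in place of 270. The medians of RGS proteins (8 of 17, -0.014) and striosome and matrix genes (8 of 13, 0.044) kept their sign with the scalings, although that of RGS proteins was 0.039 without saline replicate 1.

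Outside the activity lists, the genes with the smallest p had modest differences and none passed. Among higher genes were Tsfm, a mitochondrial translation factor, at 7.74, 7.00 and 8.34 FPKM with saline and 11.1, 10.2 and 13.2 FPKM with amphetamine (0.52), and Timm8a1, a mitochondrial import chaperone (0.41). Cdk19, a kinase of the Mediator complex, was at 21.4, 22.1 and 24.1 FPKM against 26.5, 29.7 and 30.2 FPKM (0.34). Cd72, a lectin of immune cells (0.65), Npm3, a histone chaperone (0.67), and Dph1, an enzyme of diphthamide synthesis (0.43), completed the higher ones. Their limma adjusted p ran from 0.298 to 0.374.

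Lower genes were led by AK045970, a cDNA name without a symbol, at 7.52, 6.21 and 6.89 FPKM with saline and 3.19, 4.75 and 2.08 FPKM with amphetamine (-0.90, limma adjusted p = 0.297). Kcnq5, a potassium channel of the M-current, was at 36.9, 31.4 and 36.0 FPKM against 28.0, 24.6 and 24.2 FPKM (-0.43, limma adjusted p = 0.452). Cxxc4, an inhibitor of Wnt signalling, was at 9.63, 9.22 and 10.4 FPKM against 6.78, 8.31 and 6.70 FPKM (-0.38, limma adjusted p = 0.323). Groups did not overlap in these genes, which the naming rule required. Sesn3, a stress-induced sestrin, differed by -0.36, Odz4, a teneurin of synapse formation, by -0.29, and Dinb1, a DNA polymerase that bypasses lesions, by -1.16 with its highest value at 2.48 FPKM. BC029127 differed by -0.61, and Hel308, AK021280, Parf, 1190005F20Rik and Gm14326 by -0.76, -0.69, -0.69, -0.65 and -0.37.

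On the other days most immediate-early genes had the direction of day 1. Fos differed by 1.87, 2.26 and 1.82 on days 1, 7 and 21, Btg2 by 1.78, 1.58 and 1.39, and AK006051 by 1.34, 1.34 and 1.22. On day 7 these same 3 genes passed of 13975 (0.0215%), and on day 21 0 did (0%). Of the 49 immediate-early genes, 41 (83.7%) had on day 7 and 42 (85.7%) on day 21 the direction of day 1, against 52.6% and 38.3% of all genes. The 3 comparisons have separate animals. The other genes named by p were picked for a small p on day 1, and their shares in the same direction are given as a description. Of the 7 higher genes outside the activity lists, 3 kept their direction on day 7 and 3 on day 21, and AK006051 is 1 of them. Of the 12 lower ones, 5 did on day 7 and 2 on day 21. Whether these shares differ from those of all genes was not tested. Kcnq5 differed by -0.43, 0.07 and 0.30, Tsfm by 0.52, -0.11 and -0.21, and Cnr1 by 0.33, -0.31 and -0.35 on days 1, 7 and 21.

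**Figure D5:**
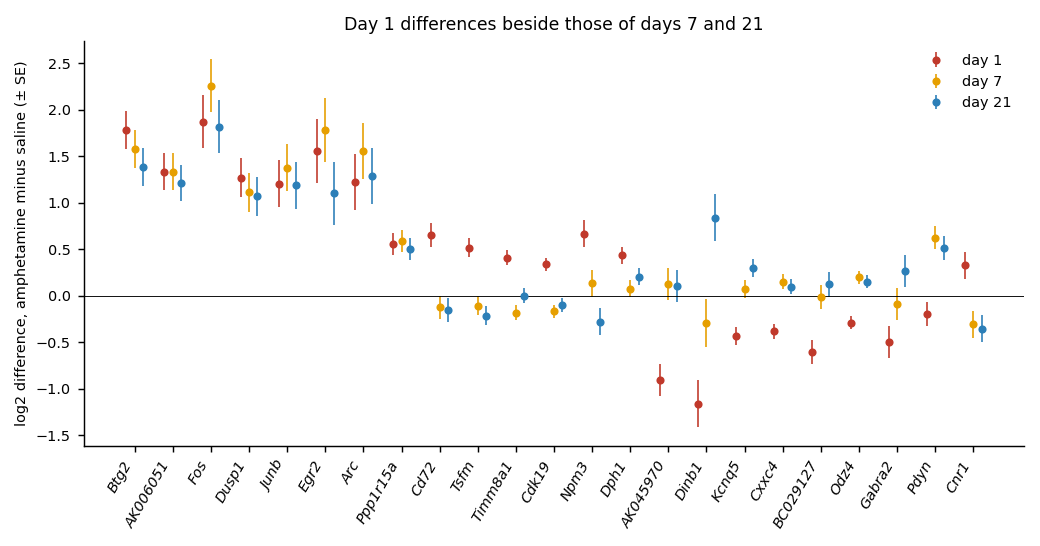
The log2 difference (amphetamine minus saline, with its SE) of 23 genes on days 1 (red), 7 (orange) and 21 (blue), each against that day's own saline mice. The immediate-early genes at the left lie close together on the 3 days, while Tsfm, Cdk19, Kcnq5 and Cxxc4 lie on opposite sides of 0 on day 1 and day 7, and Pdyn is above 0 on days 7 and 21 alone.

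Tested directly, the response differed between days for 0 genes at the adjusted threshold. Between days 1 and 7 the unadjusted limma p was under 0.05 for 699 genes (5%), and between days 1 and 21 for 1361 genes (9.74%). Npas4 differed by 0.64 on day 1 and by 1.66 on day 7 (unadjusted limma p for the difference 0.0173, not past the adjusted threshold). Pim1, by contrast, differed by 0.67 on day 1, 0.13 on day 7 and -0.18 on day 21 (unadjusted limma p for day 1 against day 21 0.00175, likewise not past it).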

How the data were processed

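Striatal polyA RNA of 18 mice was sequenced, and the 6 libraries of day 1 are reported here. The deposited values are FPKM made by the authors, in 1 table whose 18 columns were matched to samples by the number in their headers and the sample descriptions (0 other columns). The tool Bowtie and the genome build mm9 are named, without their roles, per the submitters' processing notes. How FPKM were computed, on which annotation and with or without strand, is not given in the sources used here, so a gene and an overlapping or antisense neighbour cannot be told apart. FPKM are not counts, so log2(FPKM + 1) was tested with limma 3.58.1 (R 4.3.3), with 1 mean for each of 6 groups over all 18 libraries, a mean-variance trend (12 residual and 2.26 prior degrees of freedom), two-sided p values and Benjamini-Hochberg adjustment over 13975 genes at a threshold of 0.05. Absolute depth was unknown, which limits the precision of low genes. Correlations of log2 values were 0.923 to 0.937 within and 0.911 to 0.935 between the day 1 groups.

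Genes were named by a rule: each gene past the threshold, the 12 smallest p in each direction among genes whose groups did not overlap (302 short RNA genes left out), up to 4 members of each of 33 lists (10 for immediate-early and ERK feedback lists), and genes chosen for their role. Jun, Jund, Egr3, Nr4a2, Nr4a3, Ctgf, Grin2b, Gnal and the Spred genes were named after their values were seen. The comparison, lists and rule were chosen with earlier results of these data known. Promoter windows came from RefSeq on GRCm38.p6, and 10056 of 13975 names (72%) matched. Alternatives were other pseudocounts, filters and scalings, robust moderation, array weights, a replicate block, relative depth as a covariate, single libraries left out and the day 1 libraries alone. The scripts were tested on simulated data, and figures were drawn with matplotlib 3.10.9.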

Additional observations from a re-analysis of the deposited data

How the results depend on the processing

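On day 1, 1 gene passed in the analysis as reported, and 1 also with a pseudocount of 0.1, without the filter and with both scalings. The count was 3 with a filter of 5 FPKM and without short RNA genes (Btg2, Fos and AK006051), 2 with robust moderation (Btg2 and AK006051), and 4 with array weights (these 3 and Mir1949). With only the 6 day 1 libraries it was 3, all short RNA genes and Btg2 not among them; there the spread rests on 6 libraries in place of 18. Leaving out 1 library at a time gave 1 to 8 genes, with 8 without amphetamine replicate 2, 3 without saline replicates 1 or 3, and 2 without saline replicate 2. Between days 1 and 7 it was 0, and 0 to 2 with 1 library left out (2 without saline replicate 1 or 3 of day 1). Between days 1 and 21 it was 0, 1 with array weights, and 0 to 1 with 1 library left out. With the replicate number as a block, 1 gene passed on day 1 (Btg2, limma adjusted p = 0.0420) and 0 in each difference between days. The deviations of same-numbered mice correlated at 0.10, -0.06 and 0.01, and those of differently numbered mice at -0.14 to 0.13. With 3 mice in each group, these values cannot settle whether the numbers mark a pairing.

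Of 106 genes followed, 102 kept their sign under every alternative run for them (up to 17; genes with a mean under 5 FPKM had no value under the filter at that level). Penk was -0.0484 with median-of-ratios scaling, -0.0325 with array weights, and -0.0978 to 0.073 with 1 library left out (-0.0041 and -2e-04 without saline replicates 2 and 3). Tac1 was 0.0302 with depth as a covariate and -0.1403 to 0.0661 with 1 library left out (0.0423 without saline replicate 1). Fkbp5 was -0.0059 with array weights and -0.0219 to 0.2008 with 1 library left out (lowest without saline replicate 1). Hspa1a, a heat shock gene with a difference of 0.10, was -0.1135 with array weights, -0.0514 with depth as a covariate and -0.0482 to 0.2741 with 1 library left out (lowest without amphetamine replicate 3). The count of immediate-early genes higher at an unadjusted p under 0.05 was 18 of 32 with a filter of 5 FPKM, which tests fewer of them, in place of 28 of 49. Apart from these, the cause of each change was not tested. Depth is unknown, so differences of genes near 1 FPKM are the least certain.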
